A study of Homo sapiens with 24 samples.

Results

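The 6 genes described here, SPRY1, SPRY2, SPRY4, SPRED1, SPRED2 and SPRED3, encode the Sprouty and Spred proteins, inhibitors of receptor tyrosine kinase signalling. They were taken by gene symbol from a table of 23368 genes. All 6 were in the table, and all 6 passed the filter on low counts that left 13947 genes. The fourth Sprouty gene, SPRY3, had 0 counts in all 24 libraries and is not a member.

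Sprouty and Spred proteins damp the pathway that runs from growth factor receptors through RAS, RAF and MEK to the kinase ERK. Sprouty proteins act at the level of receptor adaptors and RAF, and SPRY2 also binds the ubiquitin ligase CBL. Spred proteins bring neurofibromin, the RAS GTPase-activating protein encoded by NF1, to the membrane. Several of these genes are themselves transcribed in response to ERK activity, so they are known as feedback inhibitors and are used as readouts of the pathway.

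RNA was measured in AGS, an established human gastric adenocarcinoma line, in 6 groups of 4 biological replicates collected 24 h after treatment began. Control cells had no inhibitor, and the labels do not say whether they received vehicle. Of the treated groups, 3 had a single inhibitor: PI103, which blocks PI3 kinase and mTOR, at 0.7 µM; the MEK inhibitor PD0325901 at 0.035 µM; and (5Z)-7-oxozeaenol, an inhibitor of the kinase TAK1 called oxozeaenol from here on, at 0.5 µM. The last 2 groups had PI103 together with either oxozeaenol or PD0325901, and both agents were then at 50% of the single concentration. The cells are labelled as wild type, and all groups are from this 1 line. The replicate number equals the batch number in the labels, so the same number marks the same batch in each group.

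The libraries held 38.1 to 84.2 M counts in genes. All 6 epithelial markers were over 1 CPM (counts-per-million of the scaled library) in every group, with sums of 5054 to 7931 CPM. Endothelial markers summed to at most 0.452 CPM. The summed leukocyte list was 38.7 to 49.3 CPM in control and 188.0 to 468.1 CPM in the treated groups, nearly all of it from lysozyme (LYZ, 37.7 to 466.0 CPM), a gene that gastric epithelium also makes. The defining leukocyte genes PTPRC and CD3E had at most 7 and 1 counts in any library. CD68 was detected in every library, and 2 of the 5 leukocyte genes averaged over 1 CPM in all treated groups but PI103 with oxozeaenol. The summed fibroblast list was 8.14 to 34.3 CPM, with COL1A1 the gene over 1 CPM in every group. DCN and COL1A2 had no more than 1 count, while COL3A1 was detected in every library and LUM in some. The part of these lists in the results below was not tested. A single library stood apart: oxozeaenol replicate 2 had counts in 18263 genes, against 15645 to 16556 in the others. The member calls of oxozeaenol against control were the same in number without each of its libraries in turn.

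The start regions of 4 members are shown because these genes split into those that fell after MEK inhibition and 1 that did not. All 6 members matched a RefSeq promoter window on GRCh38.p14, in 11 windows of 250 bases before an annotated start. Only the part of a window outside exons of GENCODE release 29 is printed, 5′ to 3′ on the gene's strand, and capitals mark a motif match. The SPRED1 window lies wholly in exons and is not shown. Further windows of SPRY2 and SPRED2 that lie outside exons are not printed.
SPRY4, chr5:142324418-142324497, minus strand: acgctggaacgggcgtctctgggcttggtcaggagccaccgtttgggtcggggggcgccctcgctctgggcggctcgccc
SPRED2, chr2:65432638-65432849, minus strand: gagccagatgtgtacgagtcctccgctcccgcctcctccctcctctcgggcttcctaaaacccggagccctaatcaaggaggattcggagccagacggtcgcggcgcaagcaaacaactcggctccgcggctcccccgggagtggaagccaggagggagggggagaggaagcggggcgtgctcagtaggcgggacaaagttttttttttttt
SPRY1, chr4:123396545-123396794, plus strand: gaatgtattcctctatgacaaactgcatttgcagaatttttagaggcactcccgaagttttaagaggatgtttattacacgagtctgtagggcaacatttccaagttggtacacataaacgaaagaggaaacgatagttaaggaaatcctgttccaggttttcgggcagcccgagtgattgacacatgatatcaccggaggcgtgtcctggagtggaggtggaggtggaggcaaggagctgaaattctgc
SPRY2, chr13:80341127-80341376, minus strand: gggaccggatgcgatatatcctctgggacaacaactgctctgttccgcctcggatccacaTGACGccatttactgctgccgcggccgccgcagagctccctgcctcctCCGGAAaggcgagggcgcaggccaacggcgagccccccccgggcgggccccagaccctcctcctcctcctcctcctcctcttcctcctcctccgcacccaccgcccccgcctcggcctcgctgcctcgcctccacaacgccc
The SPRY4 stretch lies inside the gene's span, in an intron of a longer transcript. The SPRED2 and SPRY1 stretches end at the annotated 5′ edge of their genes, and the SPRY2 stretch lies upstream of its gene.

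A set of 5 motifs was searched on both strands of the windows. They were the ETS letters CCGGAA, found in 14.5% of 35116 windows of all genes, the AP-1 letters TGACTCA (4.2%), the CRE half-site TGACG (21.2%), the FOXO letters GTAAACA (2.98%) and the E-box CACGTG (6.34%). The printed SPRY2 window held TGACG 185 bases and CCGGAA 136 bases before the start, both capitalised above. The other SPRY2 windows matched none of the motifs, so a gene with more windows had more chances to match. SPRY4 held TGACG 63 bases before its start, within an exon and so not printed. A second SPRY1 window held CCGGAA, and 1 of the SPRED3 windows held TGACTCA. No window of SPRED1 or SPRED2 matched any of the motifs. These are matches of letters and say nothing of binding.

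In control cells SPRED2 and SPRED1 gave the highest signal per length of exon. On the scale of CPM per kilobase of merged exon, the control mean was 18.4 for SPRED2 (17.9 to 18.9 over the 4 libraries), 13.1 for SPRED1 (11.9 to 15.8), 7.80 for SPRY2 (6.89 to 9.47), 6.70 for SPRY4 (5.97 to 7.44) and 2.45 for SPRY1 (2.22 to 2.60). The ranges of SPRY2 and SPRY4 overlapped, while every other neighbouring pair in that order was separate. SPRED3, at 0.0126, was close to undetected. With PD0325901 the order became SPRY2 at 9.31 (6.98 to 10.7), SPRED2 at 7.57 (4.95 to 10.3), SPRED1 at 1.78 (1.16 to 2.49), SPRY1 at 1.59 (1.32 to 2.04) and SPRY4 at 0.391 (0.178 to 0.505). The ranges of SPRY2 and SPRED2 overlapped there, as did those of SPRED1 and SPRY1, and SPRY4 lay below all the others but SPRED3.

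**Figure D1:**
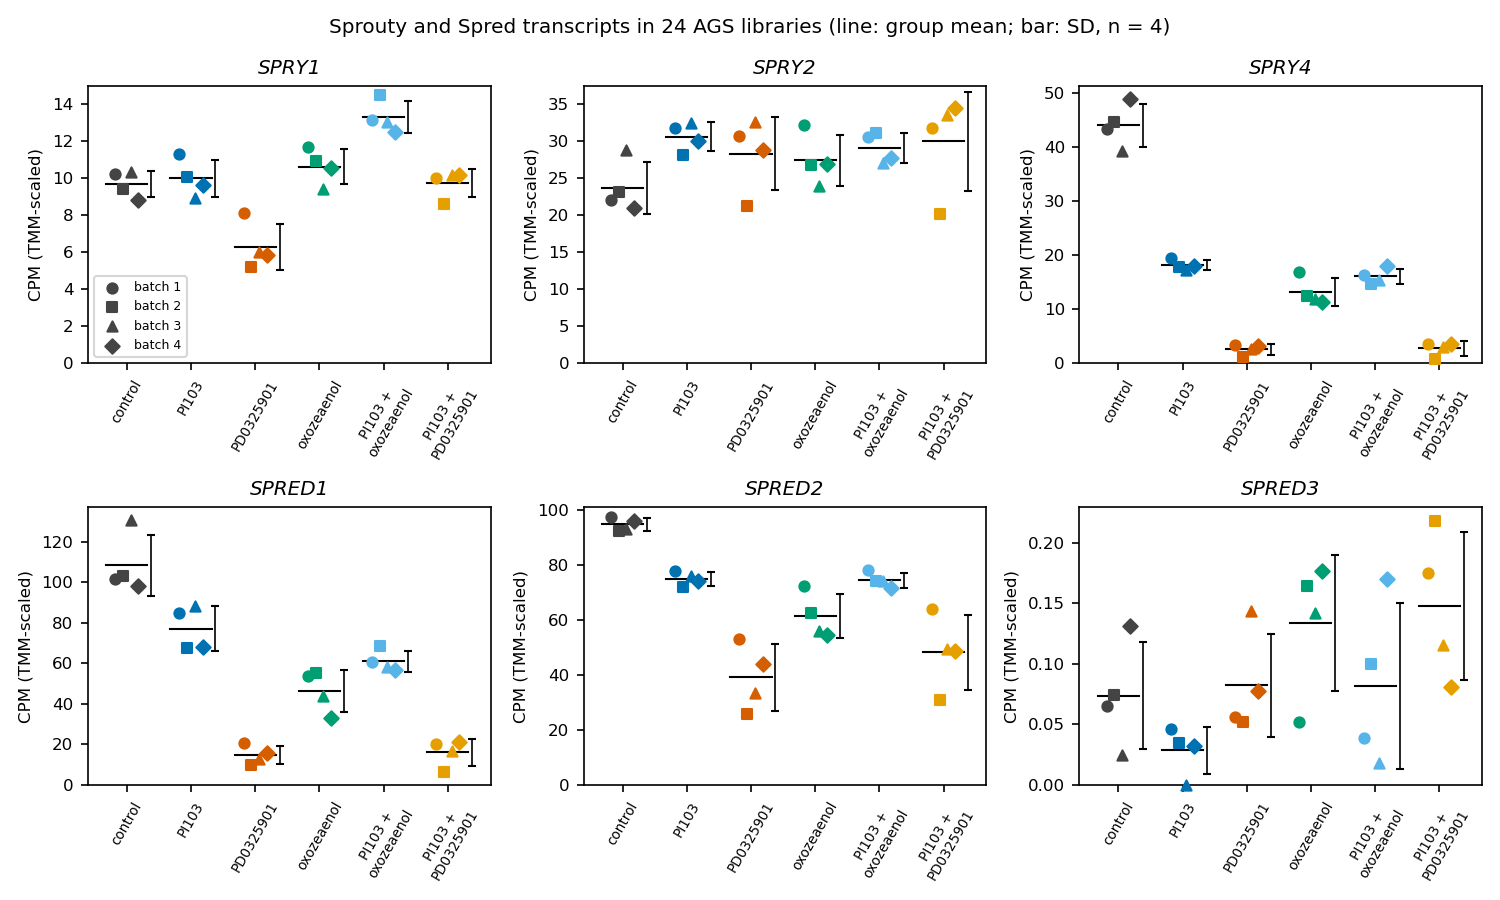
Level of each member (CPM, linear axis from 0) in each of the 24 libraries, with the marker shape giving the batch, a line at the mean and a bar for the SD (n = 4). SPRY4 and SPRED1 sit lowest in the PD0325901 groups, SPRY2 overlaps control in each treatment, and batch 2 is the lowest point for SPRY4, SPRED1 and SPRED2 in both PD0325901 groups.

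SPRY4 fell with every treatment, and most with PD0325901. Its gene lies on chromosome 5 (GRCh38, chr5:142310427-142326455, minus strand). In control replicates 1 to 4 it stood at 43.3, 44.6, 39.2 and 48.9 CPM. With PD0325901 it stood at 3.32, 1.17, 2.58 and 3.20 CPM, and with PI103 and PD0325901 together at 3.59, 0.790, 3.01 and 3.56 CPM. No library of either PD0325901 group came near the lowest control, and batch 2 was the lowest of each.

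The change of SPRY4 with PD0325901 was a log2 fold change of -4.10 (SE 0.292, adjusted p = 4.58e-11), or 17.1-fold lower. Adjusted p-values throughout are those of the edgeR quasi-likelihood F test, adjusted by Benjamini-Hochberg over all 13947 genes, and a gene is called at an adjusted p under 0.05. In a bulk culture, fewer expressing cells and less RNA per cell cannot be told apart. With the combination of PI103 and PD0325901 the log2 fold change was -4.00 (SE 0.289, adjusted p = 3.34e-11), which is 16.0-fold lower. The counts behind the low values were 68 to 206 and 47 to 287 per library.

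The other treatments left more SPRY4. It stood at 19.4, 17.8, 17.2 and 18.0 CPM with PI103, at 16.9, 12.4, 11.9 and 11.4 CPM with oxozeaenol, and at 16.4, 14.7, 15.4 and 17.9 CPM with PI103 and oxozeaenol. All 12 of these libraries were below every control and above every PD0325901 library. The log2 fold changes against control were -1.28 (SE 0.252, adjusted p = 0.000178), -1.74 (SE 0.257, adjusted p = 5.38e-06) and -1.45 (SE 0.254, adjusted p = 3.89e-05). SPRY4 was lower with PD0325901 than with PI103 by a log2 fold change of -2.82 (adjusted p = 2.49e-08) and than with oxozeaenol by -2.36 (adjusted p = 2.17e-06). Between oxozeaenol and PI103 the difference was -0.46 (95% confidence interval -0.99 to 0.06, adjusted p = 0.147). Fitted on these 2 groups alone, that difference was called (adjusted p = 0.00343), and over all alternatives the adjusted p ran from there to 0.257.

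SPRED1, which encodes the Spred protein lost in Legius syndrome, came next after SPRY4. Its gene lies on chromosome 15 (chr15:38252326-38357249, plus strand). Control replicates stood at 101.4, 102.8, 130.6 and 98.3 CPM. With PD0325901 they stood at 20.6, 9.56, 12.8 and 15.7 CPM, and with PI103 and PD0325901 at 20.3, 6.45, 16.4 and 20.9 CPM. The lowest control was more than 4 times the highest of these 8 libraries. The log2 fold changes were -2.89 (SE 0.264, adjusted p = 3.08e-09) and -2.76 (SE 0.262, adjusted p = 3.59e-09), or 7.39-fold and 6.76-fold lower.

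With oxozeaenol SPRED1 stood at 53.7, 55.3, 43.6 and 32.7 CPM, a log2 fold change of -1.22 (SE 0.248, adjusted p = 0.000255). With PI103 and oxozeaenol it stood at 60.7, 68.4, 58.2 and 56.7 CPM, a change of -0.83 (SE 0.246, adjusted p = 0.00641). With PI103 it stood at 84.7, 67.2, 88.2 and 67.9 CPM. These PI103 libraries were all below the controls, but the difference of -0.49 (SE 0.244) was not called (adjusted p = 0.0969). It was called when the 2 groups were fitted alone (adjusted p = 0.00176), and other alternatives gave up to 0.234. SPRED1 was lower with oxozeaenol than with PI103 by -0.73 (SE 0.246, adjusted p = 0.0196). Without PI103 replicate 3 or oxozeaenol replicate 4 that adjusted p was 0.0589 and 0.0654, the last being the highest of all alternatives, which began at 0.00321.

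SPRED2, whose protein also recruits neurofibromin, had smaller log2 fold changes than SPRED1. Its gene lies on chromosome 2 (chr2:65310851-65432637, minus strand). The libraries stood at 97.2, 92.4, 93.2 and 95.9 CPM in control, at 53.1, 25.5, 33.3 and 44.1 CPM with PD0325901 and at 63.9, 30.6, 49.3 and 48.8 CPM with PI103 and PD0325901. Each treated library was below each control, with batch 2 again lowest. The log2 fold changes were -1.28 (SE 0.174, adjusted p = 1.03e-06) and -0.97 (SE 0.172, adjusted p = 2.92e-05).

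With oxozeaenol SPRED2 stood at 72.3, 62.6, 55.9 and 54.5 CPM, a log2 fold change of -0.63 (SE 0.172, adjusted p = 0.00385). PI103 gave 77.7, 71.8, 75.9 and 74.1 CPM, and PI103 with oxozeaenol gave 78.1, 74.0, 74.0 and 71.6 CPM. All 8 of these libraries were below the controls. Their differences of -0.34 (SE 0.171, adjusted p = 0.102) and -0.35 (SE 0.171, adjusted p = 0.0877) were not called. With the batch as a replicate block, both were (adjusted p = 0.0394 and 0.0332). Over all alternatives their adjusted p ran from 0.000648 to 0.201 and from 0.000479 to 0.162, the lowest from the compared groups alone and the highest from library totals.

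SPRY1 moved with 2 treatments, in opposite directions. Its gene lies on chromosome 4 (chr4:123396795-123403760, plus strand). It stood at 10.2, 9.43, 10.3 and 8.81 CPM in control, at 8.10, 5.22, 6.04 and 5.85 CPM with PD0325901, and at 13.2, 14.5, 13.0 and 12.5 CPM with PI103 and oxozeaenol. Neither treated group overlapped control. The log2 fold changes were -0.62 (SE 0.115, adjusted p = 4.42e-05) and 0.46 (SE 0.112, adjusted p = 0.00123).

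With PI103 SPRY1 stood at 11.3, 10.1, 8.95 and 9.61 CPM, with oxozeaenol at 11.7, 10.9, 9.39 and 10.6 CPM, and with PI103 and PD0325901 at 10.0, 8.60, 10.2 and 10.2 CPM. These 3 groups overlapped control, with log2 differences of 0.04 (95% confidence interval -0.19 to 0.28), 0.14 (-0.10 to 0.37) and 0.01 (-0.23 to 0.24).

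SPRY2, whose protein binds CBL, was not called lower with any treatment. Its gene lies on chromosome 13 (chr13:80335976-80340951, minus strand). Control libraries stood at 22.0, 23.0, 28.8 and 20.9 CPM, those with PD0325901 at 30.7, 21.2, 32.5 and 28.8 CPM, and those with PI103 and PD0325901 at 31.7, 20.1, 33.5 and 34.4 CPM. PI103 gave 31.7, 28.1, 32.5 and 29.9 CPM, oxozeaenol 32.1, 26.7, 23.9 and 26.9 CPM, and their combination 30.5, 31.1, 27.0 and 27.7 CPM. Each treated group overlapped control, whose batch 3 was the highest of its 4 libraries.

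The rise of SPRY2 was called with PI103 (log2 fold change 0.37, SE 0.141, adjusted p = 0.0311) and with PI103 and PD0325901 (0.34, SE 0.140, adjusted p = 0.0386). These calls were weak. Leaving out control replicate 1, 2 or 4 or PI103 replicate 1 or 3 raised the first adjusted p to between 0.0657 and 0.0992. Leaving out control replicate 1, 2 or 4 or combination replicate 1, 3 or 4 raised the second to between 0.0784 and 0.130. The differences with PD0325901 (0.26, 95% confidence interval -0.03 to 0.55), oxozeaenol (0.21, -0.08 to 0.50) and PI103 with oxozeaenol (0.30, 0.01 to 0.58, adjusted p = 0.0772) were not called. With the replicate block the last had an adjusted p of 0.0449, in a range of 0.0168 to 0.198 over all alternatives. The PD0325901 difference was 0.37 (adjusted p = 0.00304) without batch 2 of both PD0325901 groups, which was left out after its values were seen, and its alternatives reached an adjusted p of 0.314. SPRY2 was called by edgeR in 0 of the 9 comparisons between treatments, in 0 at an unadjusted p under 0.05 and in 0 by DESeq2.

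SPRED3, the third Spred gene (chr19:38388421-38399587, plus strand), was barely detected, at 0 to 14 counts in any library. Summed over the 4 libraries of a group, control held 20 counts. The PI103 group held 7, the PD0325901 group 21 and the oxozeaenol group 30, and the combinations held 19 (oxozeaenol) and 39 (PD0325901). Against control 0 treatments were called by edgeR, also at an unadjusted p under 0.05, and 0 by DESeq2. Without control replicate 4, PI103 with PD0325901 was called higher than control (log2 fold change 1.496, adjusted p = 0.0438). It was called higher than with PI103 in oxozeaenol (adjusted p = 0.0137) and in PI103 with PD0325901 (adjusted p = 0.00755), where the PI103 libraries had 3, 2, 0 and 2 counts. SPRED3 passed the filter on a few higher libraries and did not pass it without replicate 1 of PI103 with PD0325901, its highest at 14 counts. Its calls are given as values and support nothing here.

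**Figure D2:**
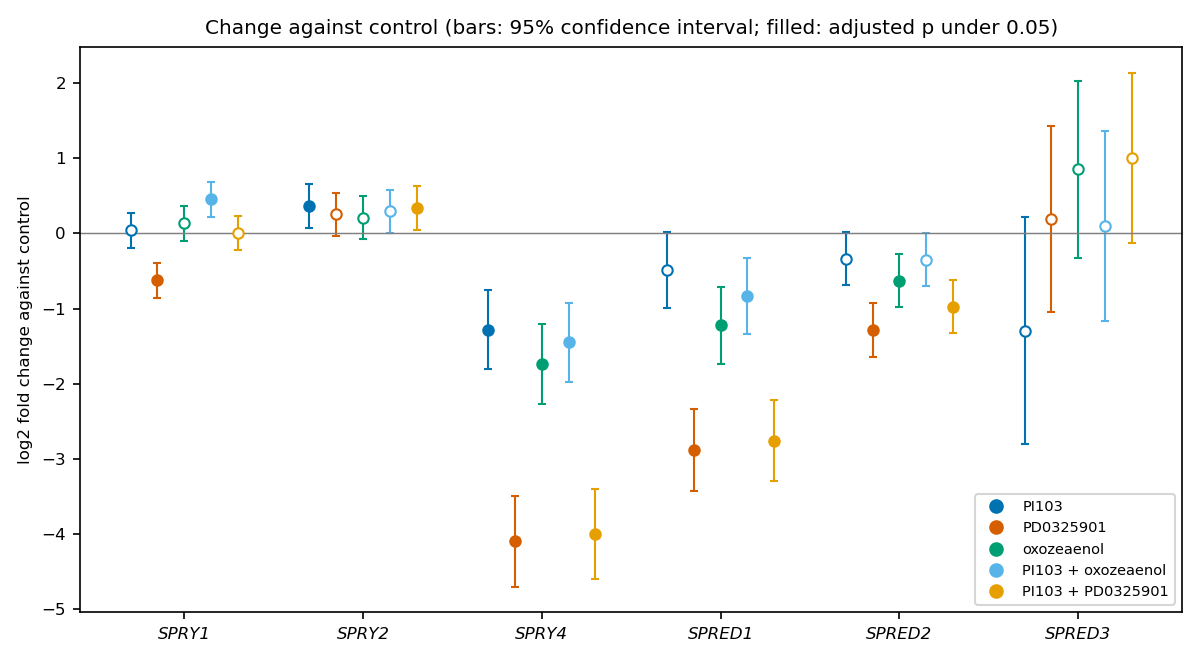
Log2 fold change of each member against control in the 5 treatments, with 95% confidence intervals and filled points for an adjusted p under 0.05. SPRY4 reaches -4.10 and -4.00 with the 2 treatments that contain PD0325901, SPRED1 -2.89 and -2.76, while the SPRY2 points lie between 0.21 and 0.37.

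Across the family, PD0325901 lowered 4 of the 6 members (SPRY1, SPRY4, SPRED1 and SPRED2) and raised none, where 58.6% of all genes tested were called and 29.9% were called lower. Of these, 3 fell by at least 1 on the log2 scale, against 5.72% of all genes. PI103 with PD0325901 gave 4 calls (64.8% of all genes), 3 lower (32.6%) and 1 higher (32.2%). Oxozeaenol lowered 3 members (51.9% of all genes called, 26.1% lower), of which SPRY4 and SPRED1 by at least 1 (4.36% called lower by as much). PI103 with oxozeaenol gave 3 calls (55.6% of all genes), 2 lower (27.9%) and 1 higher (27.7%). PI103 gave 2 calls (51.4% of all genes), 1 lower (25.2%) and 1 higher (26.2%). With the replicate block the count for PI103 with oxozeaenol was 5, where 60% of all genes were called. The share of members called in either direction was near or below that of all genes in each of the 5 treatments, so those totals are no result about the family. The counts called lower were above the shares of all genes in each treatment but PI103, and least so with PI103 and oxozeaenol. They rest on 6 members chosen with earlier results known, and the family was not tested as a set. The 5 comparisons share the 4 control libraries.

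The summed level of the 6 members was 280.3 ± 14.5 CPM in control (SD, n = 4) and 90.9 ± 22.1 CPM (SD, n = 4) with PD0325901. It was 106.7 ± 27.6 CPM with PI103 and PD0325901, 158.9 ± 22.9 CPM with oxozeaenol, 193.9 ± 8.11 CPM with PI103 and oxozeaenol, and 210.5 ± 15.4 CPM with PI103 (SD, n = 4 each). Longer transcripts give more reads, so these sums weigh SPRED1 most. SPRED1 was 38.5% of the family's reads in control and 15.9% with PD0325901. SPRY4 went from 15.8% to 2.74%. SPRY2 went from 8.42% to 31.7% and SPRED2 from 33.8% to 42.4%, while the SPRY2 level itself was 23.7 ± 3.51 and 28.3 ± 4.95 CPM (SD, n = 4 each).

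**Figure D3:**
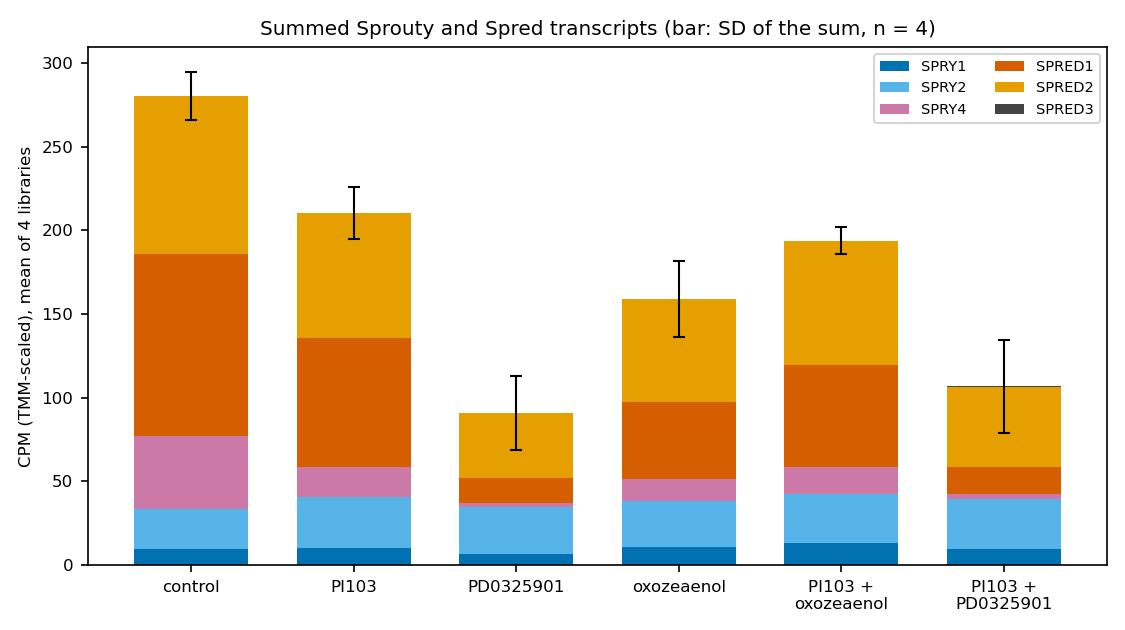
Summed CPM of the 6 members per group, stacked by gene (means of 4 libraries, bar for the SD of the sum). The stack falls from 280.3 CPM in control to 90.9 CPM with PD0325901, where SPRED2 and SPRY2 make up most of what is left.

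Within libraries, SPRY4 and SPRY2 moved apart with every treatment, and SPRED1 and SPRED2 with every treatment but PI103. Other pairs within a subfamily were not compared. For each SPRY2 read there were 1.90 ± 0.403 SPRY4 reads in control (SD, n = 4), with the 4 libraries at 1.97, 1.94, 1.36 and 2.34. The ratio was 0.0884 ± 0.0264 with PD0325901 and 0.0865 ± 0.0329 with PI103 and PD0325901 (SD, n = 4 each). It was 0.594 ± 0.0453 with PI103, 0.478 ± 0.0439 with oxozeaenol and 0.557 ± 0.0720 with both (SD, n = 4 each). No treated library reached the lowest control ratio.

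SPRED1 reads per SPRED2 read were 1.15 ± 0.175 in control and 1.03 ± 0.119 with PI103 (SD, n = 4 each), which overlapped. They were 0.376 ± 0.0140 with PD0325901, with the 4 libraries at 0.387, 0.375, 0.385 and 0.357. The spread of this ratio was small although SPRED1 and SPRED2 each differed by about 2-fold among those same libraries. With PI103 and PD0325901 the ratio was 0.322 ± 0.0890, with oxozeaenol 0.752 ± 0.117 and with PI103 and oxozeaenol 0.820 ± 0.0697 (SD, n = 4 each).

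**Figure D4:**
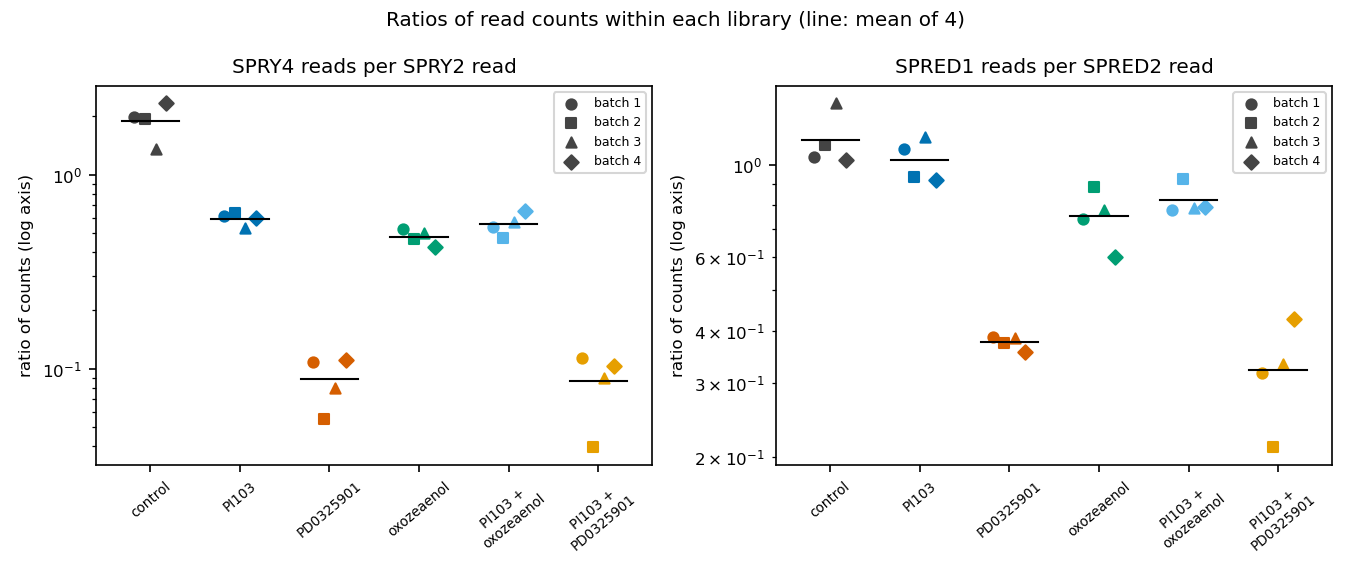
Read-count ratios SPRY4 to SPRY2 and SPRED1 to SPRED2 in each library (log axes, marker shape for the batch, line at the mean of 4). Control libraries lie between 1.36 and 2.34 for the first ratio, and the groups with PD0325901 lie at or below 0.113.

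The next comparisons set each combination against its agents given alone. The pair PI103 and PD0325901 was compared with PD0325901 alone, although the concentration of PD0325901 was lower in the combination. There 1 member was called (18.1% of all genes). SPRY1 was higher in the combination by a log2 fold change of 0.63 (SE 0.115, adjusted p = 0.000480), with no overlap between the groups, and higher in 4 of 4 batches. SPRY4 differed by 0.10 (95% confidence interval -0.50 to 0.70), SPRED1 by 0.13 (-0.39 to 0.65), SPRED2 by 0.31 (-0.05 to 0.66) and SPRY2 by 0.08 (-0.21 to 0.37), none of them called. SPRED2 was called without combination replicate 2 (0.47, adjusted p = 0.0301), and without combination replicate 1 its adjusted p was 0.644.

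Against PI103 alone, the combination with PD0325901 lowered SPRY4 (-2.72, SE 0.279, adjusted p = 6.79e-08), SPRED1 (-2.27, SE 0.258, adjusted p = 3.81e-07) and SPRED2 (-0.64, SE 0.172, adjusted p = 0.00509). These were 3 of the 5 members other than SPRED3, where 38.7% of all genes were called. Against the mean of its 2 single agents, each at full concentration, SPRY4 was lower by -1.31 (SE 0.253, adjusted p = 0.000881) and SPRED1 by -1.07 (SE 0.226, adjusted p = 0.00197), in 4 of 4 batches each. SPRY1 was higher by 0.30 (SE 0.0973, adjusted p = 0.0304). In that comparison 3 of the 5 members other than SPRED3 and 22% of all genes were called. Leaving out combination replicate 1, 3 or 4, PI103 replicate 3 or PD0325901 replicate 3 or 4 took the adjusted p of SPRY1 to between 0.0535 and 0.0813. SPRED3, with an adjusted p of 0.0282, reached 0.127 without combination replicate 2 and 0.0531 without PI103 replicate 3.

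In PI103 with oxozeaenol, SPRY1 was higher than with PI103 alone by 0.41 (SE 0.112, adjusted p = 0.0107), the 1 member called where 18.3% of all genes were. Against oxozeaenol alone, 0 members were called by edgeR where 14.9% of all genes were. SPRY1 differed there by 0.32 (SE 0.113, unadjusted p = 0.00849, adjusted p = 0.0542), with no overlap between the groups. DESeq2 called it (adjusted p = 0.0310), as did the replicate block (adjusted p = 0.0242). It was also called without oxozeaenol replicate 1 (adjusted p = 0.0358), while without oxozeaenol replicate 3 the adjusted p was 0.171, the highest of the alternatives. At an unadjusted p under 0.05 it was the 1 member.

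Against the mean of its agents, SPRY1 was higher by 0.37 (SE 0.0961, adjusted p = 0.0274), where 3.98% of all genes were called, and the other members were not called. That call was lost without any 1 of the 4 combination libraries or without replicate 3 of PI103 or oxozeaenol, with adjusted p of 0.0523 to 0.0941. The differences of SPRY4 (0.06, 95% confidence interval -0.39 to 0.51), SPRED1 (0.03, -0.41 to 0.47) and SPRED2 (0.13, -0.17 to 0.44) spanned 0.

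Between single agents, PD0325901 gave lower SPRY1, SPRY4, SPRED1 and SPRED2 than PI103, 4 members called lower where 44.5% of all genes were called and 21.7% lower. The same 4 were lower than with oxozeaenol, where 28.5% of all genes were called and 13.4% lower. Against oxozeaenol the log2 differences were -0.76 for SPRY1 (adjusted p = 3.04e-05), -1.66 for SPRED1 (adjusted p = 5.63e-05) and -0.65 for SPRED2 (adjusted p = 0.00691). Between oxozeaenol and PI103, SPRED1 was the 1 member called beside SPRED3, where 43.1% of all genes were.

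Other genes known to be switched on by ERK signalling were set beside the members. The list of 8 holds PHLDA1, the MAP kinase phosphatases DUSP4 and DUSP6, cyclin D1 (CCND1), the Eph receptors EPHA2 and EPHA4, and the ETS factors ETV4 and ETV5. The list, like the members, was chosen with earlier results of these data known, so its falls are no independent support for theirs. With PD0325901 all 8 were called lower, where 29.9% of all genes were. Their median log2 fold change was -2.48, against -0.02 over all genes. With PI103 and PD0325901 all 8 were lower (median -2.91), where 32.6% of all genes were. With oxozeaenol all 8 were lower (median -1.27), where 26.1% of all genes were. PI103 with oxozeaenol lowered 7 (median -1.16), where 27.9% of all genes were lower. PI103 lowered 4 and raised EPHA4 (median -0.55), where 25.2% of all genes were lower and 26.2% higher.

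The 8 genes split with PI103 where SPRY4 fell. DUSP6 changed by -1.43 (adjusted p = 0.000125), ETV5 by -1.37 (adjusted p = 0.0134), EPHA2 by -1.20 and PHLDA1 by -2.84. ETV4 (0.24, adjusted p = 0.562), DUSP4 (0.10, adjusted p = 0.644) and CCND1 (0.26, adjusted p = 0.170) were not called. With PD0325901, DUSP6 changed by -5.19 and ETV4 by -5.92, more than SPRY4, while ETV5 changed by -3.96. ETV5 stood at 122.6, 128.4, 128.8 and 131.5 CPM in control and at 13.7, 1.49, 9.32 and 8.44 CPM with PD0325901, with batch 2 lowest as for SPRY4. Against the mean of its agents, PI103 with PD0325901 lowered all 8, from -0.32 for EPHA2 to -3.39 for ETV4. In that comparison 22% of all genes were called in either direction. That mean includes PI103, so it does not show a fall beyond PD0325901 alone. The combination had higher mean levels than PD0325901 for CCND1 (395.7 against 301 CPM), DUSP4 (118.3 against 94.85), EPHA4 (24.47 against 19.18) and DUSP6 (3.895 against 3.605). It had lower ones for PHLDA1, EPHA2, ETV4 and ETV5. Differences of these genes from PD0325901 alone were not tested.

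**Figure D5:**
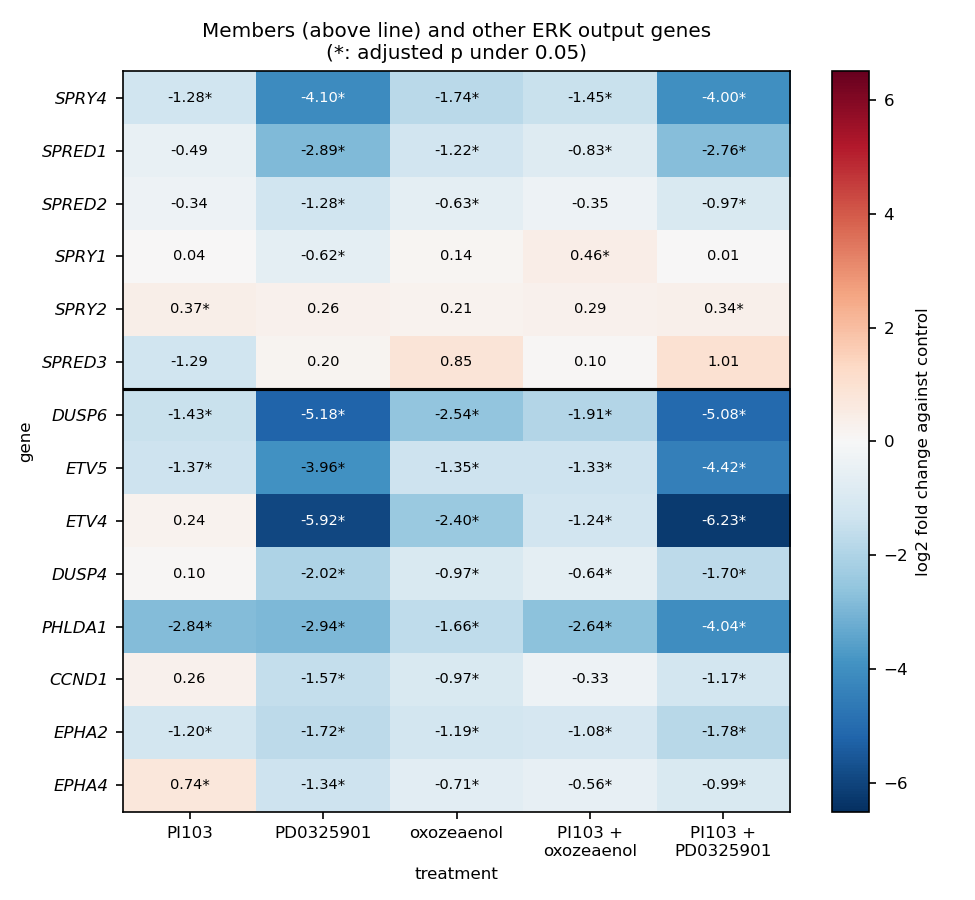
Log2 fold changes against control (colour and printed value, asterisk for an adjusted p under 0.05) of the 6 members above the line and 8 other ERK output genes below it. PD0325901 lowers all 8 genes below the line and 4 of the 6 members, and SPRY2 is the member with no negative value.

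By pattern over the 5 treatments, the gene most like SPRY4 was ETV5. Likeness was the root-mean-square difference of the 5 log2 fold changes against control over 10035 genes with a mean of at least 5 CPM, and it is a description only. ETV5 differed from SPRY4 by 0.271, followed by UBASH3B at 0.460 and TNS4 at 0.463, where the median gene differed by 2.77. The genes nearest SPRED1 were LOC541471 (0.214), LINC00152 (0.278) and the kinase gene PIM1 (0.440). LOC541471 and LINC00152 are near-identical copies, so how reads were split between them is uncertain.

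SPRED2 was nearest to ANKRD36B (0.0877), LYRM1 (0.0892) and MIOS (0.0939), SPRY1 to LOC150776 (0.0661), WDR27 (0.136) and SASH1 (0.140), and SPRY2 to RTF1 (0.0234), MYCL1 (0.0348) and DENND4C (0.0401). SPRED3 was nearest to TMPRSS3 (0.398), SLPI (0.454) and UGT1A6 (0.463), on its few counts. Among members the closest pair was SPRY1 and SPRY2 (0.451), then SPRY1 and SPRED2 (0.744), and SPRY4 and SPRED1 were 0.927 apart. The median gene differed from SPRY1 by 0.518, from SPRY2 by 0.486 and from SPRED2 by 0.792. By that measure SPRY1 was hardly nearer to SPRY2 than a typical gene was, and no nearer to SPRED2. The median gene differed from SPRY4 by 2.77 and from SPRED1 by 1.88, so that pair was nearer than typical.

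Genes whose products work with Sprouty and Spred proteins moved in both directions. Of 15 partners, 9 were lower and 3 higher with PI103, 8 and 3 with PD0325901, and 6 and 1 with oxozeaenol. Each of the 2 combinations gave 8 lower and 3 higher. Of all genes, 25.2% were lower and 26.2% higher with PI103, 29.9% and 28.7% with PD0325901, and 26.1% and 25.7% with oxozeaenol. With oxozeaenol added to PI103 27.9% were lower and 27.7% higher, and with PD0325901 added 32.6% and 32.2%. Their median log2 fold changes lay between -0.24 and -0.14, against -0.02 to 0.02 over all genes. NF1, through which Spred proteins act, was not called in any treatment, with 115.5 CPM in control and 97.8 CPM with PD0325901 (log2 fold change -0.24, adjusted p = 0.0761). The ubiquitin ligase gene NEDD4 fell in every treatment, from -0.91 with oxozeaenol to -1.61 with PI103. SIAH2, another ubiquitin ligase gene, fell by between -0.40 with oxozeaenol and -0.99 with PI103. Caveolin 1 (CAV1) rose from a low mean of 0.315 CPM in control to between 1.10 CPM with PI103 and 3.88 CPM with PD0325901, where its log2 fold change was 3.57 (adjusted p = 1.39e-07).

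Of 22 genes from the receptors to ERK, 21 were tested. With PD0325901, 8 were higher and 5 lower, and with PI103, 7 and 5. Oxozeaenol gave 4 higher and 8 lower, and the combinations gave 7 and 8 with oxozeaenol and 7 and 7 with PD0325901. Of all genes 58.6% were called with PD0325901, 51.4% with PI103, 51.9% with oxozeaenol, and 55.6% and 64.8% with the combinations, and nothing particular to this list is read from its counts. Its median log2 fold changes lay between -0.09 and 0.14. The receptor gene FGFR3 rose in every treatment, by between 0.89 with oxozeaenol and 1.57 with PI103 and PD0325901. EGFR fell in every treatment, from -0.72 with PI103 to -1.44 with PD0325901. MAPK3, which encodes ERK1, rose by between 0.95 with oxozeaenol and 1.16 with PD0325901.

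Of 14 other feedback regulators, 11 were tested. With PD0325901, 5 were lower and 1 higher, and with PI103 and PD0325901, 5 and 3. PI103 gave 2 lower and 2 higher, oxozeaenol 4 and 1, and PI103 with oxozeaenol 3 and 4. Beside the shares of all genes called, given for the receptor to ERK list above, these counts too are a description. ERRFI1, an inhibitor of the EGF receptor, fell most, from a control mean of 1676 CPM. It stood at 93.1 CPM with PD0325901 (log2 fold change -4.17, adjusted p = 1.78e-12) and at 74.8 CPM with PI103 and PD0325901 (-4.485, adjusted p = 4.06e-13). Oxozeaenol left 130.3 CPM, PI103 left 258.4 CPM, and PI103 with oxozeaenol left 131.1 CPM. LRIG1, which restrains receptor levels, fell with PD0325901 (-0.76, adjusted p = 1.69e-05) and with PI103 and PD0325901 (-0.55, adjusted p = 0.000647), and rose with PI103 and oxozeaenol (0.36, adjusted p = 0.0205). RASAL2, a RAS GTPase-activating protein gene, rose with PD0325901 (0.44, adjusted p = 0.00411) and most with PI103 and PD0325901 (0.70, adjusted p = 2.71e-05).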

How the data were processed

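RNA was sequenced from 24 AGS libraries, 4 in each of 6 groups taken from the sample titles. Per the labels' protocols, mRNA libraries were made with a stranded Illumina kit from total RNA. The authors deposited whole-number counts per gene symbol, and the table held no other per-sample columns. The genome build was GRCh38, per the submitters' processing notes. The aligner, the counting program and its strand setting are not given in the sources used here. The 5 tallies of unassigned reads (10.7% to 16.5% of each library's tallied reads) were left out.

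The counts were filtered with filterByExpr, scaled by TMM and fitted in edgeR 4.0.16 (R 4.3.3) with 1 coefficient per group over all 24 libraries. Each of 14 comparisons was tested two-sided with the quasi-likelihood F test, with Benjamini-Hochberg adjustment over 13947 genes. The SE was obtained as |log2 fold change| over the root of F. CPM are TMM-scaled. Depth was 38.1 to 84.2 M gene counts a library, so counting error matters mainly for SPRED3, at no more than 14 counts. Exon lengths, positions and exon overlaps came from GENCODE release 29, and no member's exons overlapped those of another gene. The code was also run on counts simulated from the fit's own estimates, without a batch effect, which checks the code and not the model.

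The members and the gene lists were chosen with earlier results of these data known. Named genes are the 6 members, the 8 ERK output genes, SPRY3, in each other list the 3 genes with the largest mean absolute change among those called and at 1 CPM or more, and the 3 genes most like each member. In the labels a replicate's number is also its batch, so numbers pair the samples. Deviations of same-numbered libraries had a mean correlation of 0.12 over 60 pairs (47 positive), against -0.04 over 180 pairs with different numbers. No libraries were identical. The value of 1 marker gene is not reported here. Alternatives were RLE factors, library totals, no filter, DESeq2 1.42.0, a replicate block, a fit on the compared groups alone, each library left out, and batch 2 of both PD0325901 groups left out, the last added after seeing the data.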

Additional observations from a re-analysis of the deposited data

Results flagged for a closer look

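Of 36 combinations of a member and a group examined for a library far from its group, 2 stood out, and chance alone marks about 1 in 20. SPRY1 in PI103 with PD0325901 was 8.60 CPM in replicate 2, where the other 3 libraries lay between 10.0 and 10.2 CPM. SPRED1 in control was 130.6 CPM in replicate 3, where the others lay between 98.3 and 102.8 CPM. Batch 2 of both PD0325901 groups also had the lowest SPRY2, SPRY4, SPRED1 and SPRED2 of its group, without passing that mark.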

How the results depend on the processing

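The falls of SPRY4 and SPRED1 with PD0325901, alone or with PI103, and of both with oxozeaenol were called in every alternative run, and no called change of a member reversed. The number of members called (share of all genes called in brackets) moved by over 1.5 times in 6 comparisons when the filter, the scaling, the tool or the design was changed. Without a filter on low counts it was 1 for PI103 against control (34.2%) and 0 for PI103 with oxozeaenol against the mean of its agents (2.17%). Fitted on the compared groups alone it was 4 for PI103 (57.3%) and 5 for PI103 with oxozeaenol (60.6%) against control, 2 for PI103 with oxozeaenol against PI103 (30.9%), 1 for it against oxozeaenol (16.9%), and 2 for PI103 with PD0325901 against the mean (19.5%). With the replicate block, which pairs libraries by batch, it was 5 for PI103 with oxozeaenol against control (60%) and 1 for it against oxozeaenol (22.2%), and the block also called SPRED2 with PI103 (-0.34, adjusted p = 0.0394). The block changed no other call. DESeq2 (18.7%) and library totals (14.6%) each also gave 1 against oxozeaenol. The cause was not tested.

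Leaving out each library in turn gave 1 to 2 members for PI103 against control, 0 to 1 for PI103 with oxozeaenol against oxozeaenol and against the mean, 1 to 2 for PI103 with PD0325901 against PD0325901, 2 to 4 for it against the mean, and 1 to 2 for oxozeaenol against PI103. Library totals raised the median log2 fold change of all genes by up to 0.13 (PI103 with PD0325901 against control), and with them SPRY2 was called with PD0325901 (0.34, adjusted p = 0.0427).

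Some uncalled differences near 0 changed sign. Leaving out each library in turn, against control SPRY1 ranged from -0.021 to 0.092 with PI103 and from -0.040 to 0.061 with PI103 and PD0325901, and SPRED3 from -0.23 to 0.69 with PD0325901 and from -0.48 to 0.58 with PI103 and oxozeaenol. In PI103 with oxozeaenol, SPRED2 against PI103 ranged from -0.027 to 0.011, SPRED1 against the mean from -0.037 to 0.078 and SPRED3 against the mean from -0.27 to 0.62. In PI103 with PD0325901, SPRY1 against PI103 ranged from -0.088 to 0.025, SPRY4 and SPRED1 against PD0325901 from -0.16 to 0.40 and from -0.049 to 0.39, and SPRED2 against the mean from -0.34 to 0.00073. SPRY1 in that combination was -0.015 against control without the filter, and against PI103 it was 0.019 with library totals and 0.017 without batch 2 of both PD0325901 groups.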
